A study of Mus musculus with 6 samples.

Results

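The chemokine and chemokine receptor genes were taken as every row whose symbol was Ccl, Cxcl, Ccr or Cxcr followed by a number and an optional letter a to d, together with Cx3cl1, Cx3cr1 and Xcr1. These were 56 of the 22899 genes in the deposited table, 38 ligands and 18 receptors. Livers came from ICR mice, an outbred stock, that were gavaged for 1 week with either water (10 ml/kg) or an extract (1 g/kg per day). The extract was the part of a watery Chebulae Fructus preparation, the fruit of Terminalia chebula, that passed into ethyl acetate. Oligo(dT)-selected RNA gave 3 libraries per group, named below by treatment and number (water 1, extract 1 and so on). The labels state neither sex nor age, nor whether each library came from its own animal. Every p-value therefore rests on variation among libraries that may be technical. Values are FPKM, fragments scaled by transcript length and library size, a unit inferred from the values since the table names none. Comparing levels between genes relies on this inferred unit, because FPKM is per length.

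Chemokines are small secreted proteins that attract leukocytes along gradients, and their receptors are G protein-coupled receptors on the attracted cells. The families are named after the spacing of the first conserved cysteines of the ligand: CC ligands (Ccl genes) act on CC receptors (Ccr), CXC ligands (Cxcl) on CXC receptors (Cxcr), and Cx3cl1 on Cx3cr1. In the liver they are known for placing and recruiting lymphocytes, monocytes and neutrophils in the sinusoids and around the portal tracts, and several are induced by interferons or by NF-kB, a transcription factor of inflammation.

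Library facts that touch every result are few. FPKM summed to between 517984 and 583245 per library, 15440 to 15601 genes were above 0, and read totals were not given, so the counting error of a low value is unknown. The 10 hepatocyte markers all passed the filter and summed to 85073 to 90355 FPKM in water and 71272 to 82143 in the extract group. Most of each sum was Alb, at a mean of 65842 FPKM in water and 50716 in the extract group (log2 fold change -0.38, limma adjusted p = 0.618). Of the 10 markers 5 had a log2 fold change above 0, and the median was -0.03. On principal components of all genes tested, extract 3 lay at 2.06 on the first component, between water (-23.1 to -3.81) and the other extract libraries (14.2 and 26.8), and water 1 lay at 29.6 on the second component, where the others lay between -11.9 and -2.74. In bulk liver, fewer cells of a type and less RNA per cell cannot be told apart.

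Most of the set was barely present in liver. 4 genes (Ccl1, Ccl20, Ccr8 and Cxcl11) were blank in every library, and 1, the CXCR2 ligand gene Cxcl3, was listed at 0 in all 6. Of the 51 genes above 0 somewhere, 29 were above 0 in all 6 libraries, and 40 to 44 were above 0 in any given library. 14 genes reached 1 FPKM in at least 3 libraries, the level taken here as detected and required for testing: 12 ligands (Cxcl12, Ccl9, Cxcl1, Ccl6, Ccl27a, Cxcl9, Cxcl16, Ccl24, Cxcl10, Ccl21a, Ccl5 and Ccl25) and 2 receptors, Cxcr2 among them. 12 of the 14 were at or above 1 FPKM in all 6 libraries, and among the others was Ccl25, at 0.86 in water 2. None passed through the extract group alone. Just outside were Cxcl13, at 1 FPKM or more in 2 libraries, and Ccl2 and Ccl27b, in 1 library each. At 0.1 FPKM in at least 3 libraries 33 genes would count as detected.

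The promoters of 3 ligand genes are shown because Cxcl10 and Cxcl9 are neighbours that share a receptor, and Cxcl1 is the main CXCR2 ligand gene here and the least even of the abundant ligands. Each line gives the 250 bases before the RefSeq start (GRCm38.p6), 5′ to 3′ on the strand of the gene. Capitals mark matches, on either strand, to GAAA and GAAA parted by 2 bases of any kind (the core of the interferon-stimulated response element), GGGA and TTCC parted by 2 (an NF-kB form) or TTC and GAA parted by 3 (the gamma-activated site).
Cxcl10, minus strand, chr5:92348890-92349139: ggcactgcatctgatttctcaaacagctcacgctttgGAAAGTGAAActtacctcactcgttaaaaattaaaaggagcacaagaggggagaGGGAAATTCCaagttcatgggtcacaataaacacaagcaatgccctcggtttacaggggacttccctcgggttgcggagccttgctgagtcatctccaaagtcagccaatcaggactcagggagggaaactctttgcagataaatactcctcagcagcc
Cxcl9, minus strand, chr5:92328080-92328329: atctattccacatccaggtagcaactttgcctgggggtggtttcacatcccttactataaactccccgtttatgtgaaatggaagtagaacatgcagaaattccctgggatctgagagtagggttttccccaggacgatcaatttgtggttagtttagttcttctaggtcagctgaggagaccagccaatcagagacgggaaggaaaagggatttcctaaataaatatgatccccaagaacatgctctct
Cxcl1, plus strand, chr5:90890995-90891244: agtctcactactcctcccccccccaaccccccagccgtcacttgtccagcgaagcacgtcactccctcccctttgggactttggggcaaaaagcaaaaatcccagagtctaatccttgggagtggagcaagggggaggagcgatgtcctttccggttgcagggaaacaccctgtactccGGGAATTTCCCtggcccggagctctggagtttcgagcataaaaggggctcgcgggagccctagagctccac

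The Cxcl10 window held the interferon element starting 213 bases and an NF-kB match starting 159 bases before the gene's start, while the Cxcl9 window held none of these letters. The Cxcl1 window held 2 overlapping NF-kB matches, 1 on each strand, 71 and 70 bases before the start, and the windows of Cxcl2 and Cxcl3 held the same letters. Among the 47 RefSeq start windows found for 40 of the 56 genes, 3 genes had the interferon letters (Ccl19, Cxcl10 and Cxcl14), 6 had the NF-kB letters (Ccl1, Ccr3, Cxcl1, Cxcl10, Cxcl2 and Cxcl3) and 3 had the gamma-activated letters (Ccl17, Ccr6 and Cxcl14). The Ccr3 and Cxcl14 windows lie inside their annotated genes. In GENCODE M21 the Cxcl1 window overlaps an exon of Cxcl1 itself. Counted as windows, 3, 6 and 3 of the 47 held the respective letters. Of all 32851 windows of this length, 2.98%, 1.21% and 7.02% did. Cxcl1, Cxcl2 and Cxcl3 lie close together on chromosome 5. Whether the shares differ was not tested. A match describes the sequence and is not evidence of binding. Only these fixed letters were searched, so a window without a match, such as that of Cxcl9, may hold other forms of these elements.

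No chemokine or receptor gene passed limma's test at a Benjamini-Hochberg adjusted p below 0.05, where 5 of the 10282 genes tested (0.0486%) did. At an unadjusted limma p below 0.05 there were 2 of the 14, Cxcl10 among them, both higher in the extract group, against 10.3% of all genes in either direction, 6.50% higher and 3.82% lower. 2 of 14 is 14.3%, a share near that background. The log2 fold changes, on the log2(FPKM + 1) scale throughout, ran from -0.36 (Ccl21a) to 0.64 (Cxcl10), with a median of 0.10 beside 0.03 over all genes tested. 9 of the 14 were above 0 (64.3%, against 57.5% of all genes). In 2 of the 14, Cxcl10 again among them, every extract library lay above every water library, and in none of them below, where 10.0% and 5.88% of all genes tested did so. The lowest adjusted p of any of the 14 under the alternatives in which it was tested was 0.149, and 5 of them were tested where a mean of 5 FPKM was required.

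**Figure D1:**
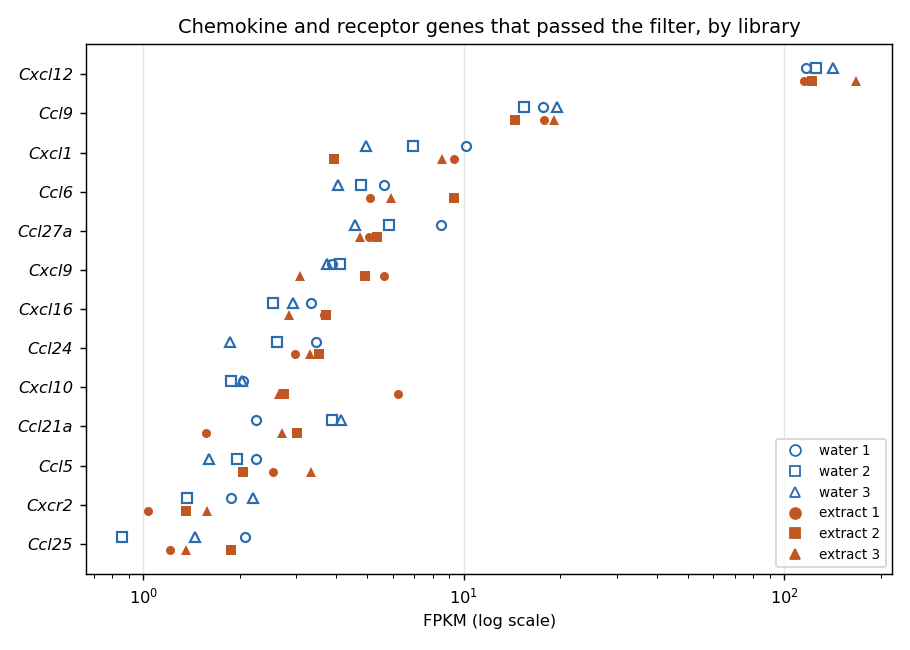
FPKM on a log axis for 13 of the 14 genes that passed the filter, with 1 point per library (open blue, water; filled orange, extract). Cxcl12 lies between 115 and 167 FPKM in all libraries and Ccl9 between 14.4 and 19.6, and of the genes drawn only Cxcl10 has groups that lie apart.

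Cxcl12, the ligand of CXCR4 that retains stem cells and lymphocytes in tissues, was by far the most abundant. It had 117, 125 and 142 FPKM in water and 115, 122 and 167 FPKM in the extract group. The highest value was that of extract 3, the lowest that of extract 1, and the groups overlapped. The log2 fold change was 0.06 with a 95% interval from -0.33 to 0.45 (limma adjusted p = 0.956). Cxcl12 alone made up 63.6% to 73.2% of the FPKM sum of the 35 ligands with values, a sum that ran from 180 to 228. Without Cxcl12 the ligands summed to 57.4 ± 5.05 FPKM in water and 61.9 ± 3.52 in the extract group (mean ± SD, n = 3 per group throughout). The 5 ligands with a mean of at least 5 FPKM (Cxcl12, Ccl9, Cxcl1, Ccl6 and Ccl27a) held 84.2% to 90% of the sum.

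Its receptor gene Cxcr4 was below the filter, at 0.59, 0.13 and 0.27 FPKM in water and 0.43, 0.88 and 0.51 in the extract group, with overlapping groups. The level of Cxcl12 was 138 to 964 times that of Cxcr4, a range set mostly by the low Cxcr4 values. Cxcl13, the B cell attractant, had 0.79, 0.77 and 1.11 FPKM in water and 0.73, 1.66 and 0.66 in the extract group. Extract 2 was highest and extract 3 lowest, so the groups overlapped.

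The CXCR3 ligands, which interferons induce and which attract activated T cells and NK cells, were Cxcl9 and Cxcl10. They lie next to each other on chromosome 5 (Cxcl9, gene ID 17329, at chr5:92321331-92328079; Cxcl10, 15945, at chr5:92346638-92348889; GRCm38). Cxcl10 had 2.04, 1.87 and 2.03 FPKM in water and 6.24, 2.75 and 2.65 in the extract group. Water values lay within 0.2 FPKM of each other and below all extract values, and extract 1 stood far above the other extract libraries. The log2 fold change was 0.64 with a standard error of 0.25 and a 95% interval from 0.05 to 1.22, and it did not pass the threshold (limma adjusted p = 0.452). It was 0.31 when extract 1 was left out, so this library carried much of the difference. In GENCODE M21 5.91% of the exon bases of Cxcl10 overlap Art3, on the opposite strand, and whether the counting used strand is not given in the sources used here.

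Cxcl9 had 3.87, 4.12 and 3.74 FPKM in water and 5.63, 4.93 and 3.09 in the extract group. Extract 1 and 2 lay above water and extract 3 below all other libraries, so the groups overlapped (log2 fold change 0.15, 95% interval -0.27 to 0.57, limma adjusted p = 0.866). The value was 0.01 without extract 1 and 0.35 without extract 3, so it rests on single extract libraries. The ratio of Cxcl10 to Cxcl9 was 0.454 to 0.543 in water and 1.11, 0.558 and 0.858 in extract 1 to 3, so every extract library had more Cxcl10 relative to Cxcl9 than every water library. The ratio was formed after the values were seen and was not tested. Cxcr3, the shared receptor gene, had 0.25, 0.1 and 0.36 FPKM in water and 0.24, 0.1 and 0.17 in the extract group.

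The CXCR2 ligands, which attract neutrophils, were represented by Cxcl1 (gene ID 14825, chr5:90891245-90893121). Its level was the least even of the abundant ligands, with 10.1, 6.92 and 4.95 FPKM in water and 9.3, 3.94 and 8.52 in the extract group. The groups overlapped, and the log2 fold change was -0.04 with a wide 95% interval from -0.78 to 0.71 (limma adjusted p = 0.983). The related Cxcl2 was at 0.05 FPKM in each water library and at 0.31, 0 and 0 in the extract group, and Cxcl5 did not exceed 0.04. The receptor gene Cxcr2 had 1.88, 1.37 and 2.2 FPKM in water and 1.03, 1.36 and 1.58 in the extract group. Extract 1 was lowest and water 3 highest, but water 2 lay below extract 3 (log2 fold change -0.27, 95% interval -0.63 to 0.08, limma adjusted p = 0.612). Cxcr1, the related receptor gene, did not exceed 0.06.

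**Figure D2:**
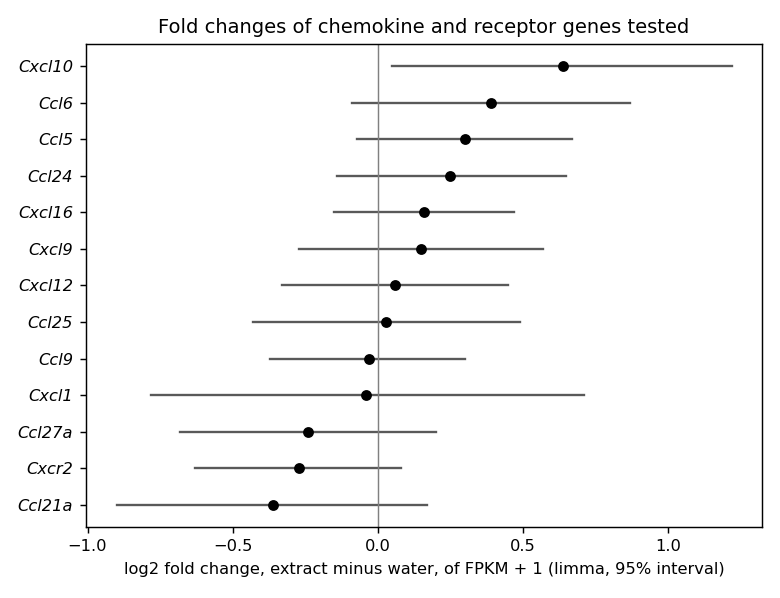
Log2 fold change of FPKM + 1, extract minus water, with limma's 95% interval for 13 of the 14 tested genes. The interval of Cxcl10 (0.05 to 1.22) excludes 0 before adjustment for the number of genes, and those of the other 12 drawn include it.

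The ligands of CCR1 and their relatives lie in a cluster on chromosome 11. Ccl9, a CCR1 ligand of the mouse, was the second most abundant ligand and, with Cxcl12 and Cxcl16, among the steadiest. It had 17.6, 15.4 and 19.6 FPKM in water and 17.8, 14.4 and 19.1 in the extract group, with a coefficient of variation of 11.7% over all 6 libraries, against 15.2% for Cxcl12, 33.8% for Cxcl1 and 56.7% for Cxcl10. The log2 fold change was -0.03 (95% interval -0.37 to 0.30, limma adjusted p = 0.970). Its neighbour Ccl6, another CCR1 ligand of the mouse that macrophages make, had 5.65, 4.77 and 4.06 FPKM in water and 5.09, 9.32 and 5.94 in the extract group. Extract 2 was far above the rest, and extract 1 lay within the water range (log2 fold change 0.39, 95% interval -0.09 to 0.87, limma adjusted p = 0.586). Leaving out extract 2 gave a log2 fold change of 0.17. The ratio of Ccl6 to Ccl9 was 0.646 in extract 2 and 0.208 to 0.321 in the other libraries.

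Ccl5, a ligand made by T cells and NK cells, had 2.25, 1.96 and 1.6 FPKM in water and 2.53, 2.04 and 3.33 in the extract group. Extract 3 was highest, and extract 2 lay below water 1 (log2 fold change 0.30, 95% interval -0.07 to 0.67, limma adjusted p = 0.588). Leaving out extract 3 gave a log2 fold change of 0.16. Ccl3 and Ccl4, the macrophage inflammatory proteins, whose annotated genes overlap, did not exceed 0.43 and 0.26 FPKM and were each listed at 0 in at least 1 library. The 11 markers of Kupffer cells, the resident liver macrophages, none at 0 in all libraries, summed to 136 to 161 FPKM in water and 219 to 333 in the extract group. None of them passed limma's adjusted threshold, and their part in the values of Ccl6 and Ccl24 was not tested. Ccr1 did not exceed 0.12.

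The CCR2 ligands, which recruit monocytes, were all below the filter. Ccl2 (20296, chr11:82035577-82037452) had 0.14, 0.07 and 0.07 FPKM in water and 1.48, 0.35 and 0.55 in the extract group. All extract values lay above all water values, and extract 1 stood highest by a wide margin. With no filter on low genes its log2 fold change was 0.66 (standard error 0.21, limma adjusted p = 0.436), and with a pseudocount of 0.1 it was 2.02 (standard error 0.46, limma adjusted p = 0.291). At 0.07 FPKM few reads can stand behind a value of so short a gene, though their number is unknown. Ccl7, which lies downstream on the same chromosome, had 0, 0.07 and 0.07 FPKM in water and 0.36, 0.14 and 0.07 in the extract group. Extract 1 was again the highest, and extract 3 equalled water. Ccl12 was above 0 only in extract 2 (0.11) and Ccl8 only in water 3 (0.24). The receptor gene Ccr2, a monocyte gene, had 0.18, 0.29 and 0.24 FPKM in water and 0.31, 0.17 and 0.15 in the extract group, with overlapping groups.

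The summed level of the 9 monocyte and neutrophil markers was 15 to 19.3 FPKM in water and 16.1 to 20.2 in the extract group. Most of it was Lyz2, at 8.01 ± 1.47 against 8.29 ± 0.781 FPKM, and Ly6g, at 4.6 ± 1.36 against 5.04 ± 0.39. The even sum therefore rests mainly on these genes. Of the 5 tested genes of the list 0 passed (0 at unadjusted limma p below 0.05).

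CCR3 and its ligands are known for eosinophil traffic. Ccr3 (12771, chr9:124017825-124031692) was below the filter at 0.15, 0.29 and 0.32 FPKM in water and 0.62, 0.57 and 0.87 in the extract group. All extract values lay above all water values, and the lowest extract value was well clear of the highest water value. With no filter the log2 fold change was 0.43 (standard error 0.09, limma adjusted p = 0.286), and with a pseudocount of 0.1 it was 1.17 with a standard error of 0.28. Ccl24, a CCR3 ligand of macrophages, had 3.45, 2.61 and 1.86 FPKM in water and 2.97, 3.54 and 3.3 in the extract group. Water 1 lay within the extract range (log2 fold change 0.25, 95% interval -0.14 to 0.65, limma adjusted p = 0.694). Leaving out water 3 gave a log2 fold change of 0.09. Ccl11 did not exceed 0.05, and Ccl26 was above 0 only in water 3 (0.23).

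**Figure D3:**
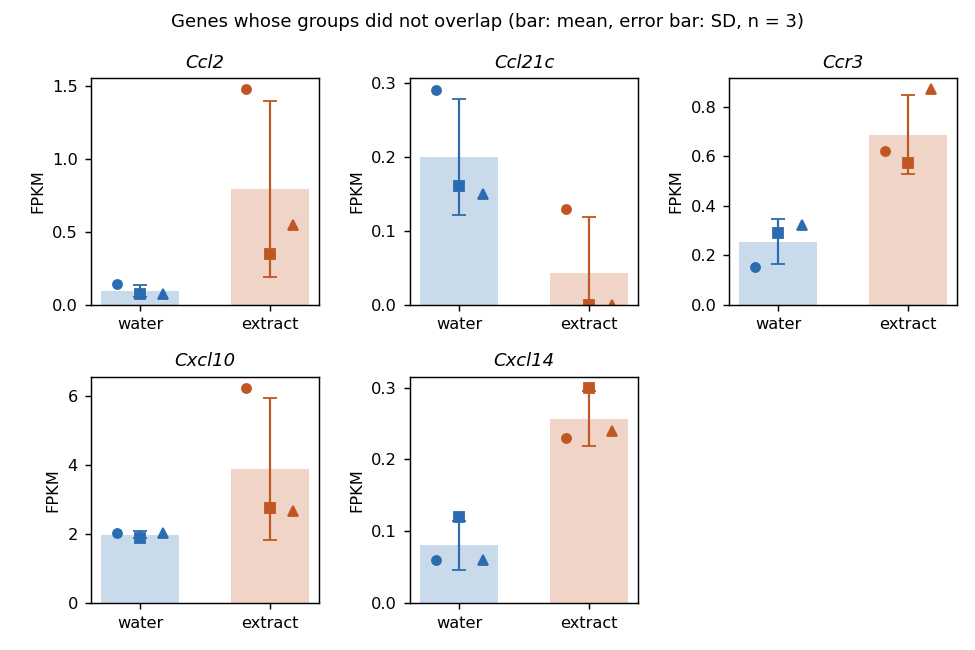
FPKM by group for 5 of the 6 genes whose groups did not overlap, with a bar for the mean, an error bar for the SD (n = 3) and 1 point per library. Ccl2 and Cxcl10 are highest in extract 1 (1.48 and 6.24), and Ccl21c is the single gene that is lower in the extract group.

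Cxcl14, a chemokine of epithelia and stroma, was below the filter at 0.06, 0.12 and 0.06 FPKM in water and 0.23, 0.3 and 0.24 in the extract group. The extract values were close together and all above water. With no filter the log2 fold change was 0.22 with a standard error of 0.04 (limma unadjusted p = 7.96e-04, adjusted p = 0.245), the smallest p of the set, and with a pseudocount of 0.1 it was 1.00 with a standard error of 0.20 (adjusted p = 0.275). Without the filter 5 of the 51 genes above 0 had an unadjusted limma p below 0.05 (among them Ccl2, Ccl21c, Ccr3 and Cxcl14), or 9.8% against 9.13% of all 17146 genes, and 0 of all genes (0%) passed the adjusted threshold. In 5 of the 51 (among them Ccl2, Ccr3, Cxcl10 and Cxcl14) the extract libraries all lay above water, or 9.8% against 8.11% of all genes. In 1 (1.96%), Ccl21c, they all lay below, against 4.90%. Both shares are near the background. For a single gene the exact permutation test of 3 against 3 libraries cannot give a two-sided p below 0.1.

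CCR7 guides dendritic cells and T cells to lymphoid tissue. Of its ligand genes Ccl21a had 2.25, 3.88 and 4.13 FPKM in water and 1.57, 3.01 and 2.7 in the extract group. Extract 1 was lowest, and water 1 lay within the extract range (log2 fold change -0.36, 95% interval -0.90 to 0.17, limma adjusted p = 0.656). Leaving out extract 1 gave a log2 fold change of -0.17. Ccl21c was at 0.29, 0.16 and 0.15 in water and at 0.13, 0 and 0 in the extract group, and Ccl21b was above 0 only in extract 3 (0.53). The Ccl21 genes are near-identical copies, so how reads were divided among them is uncertain and single values may not belong to a single copy. Ccl19 had 0.74 FPKM in extract 2 and at most 0.09 elsewhere. Ccr7 itself had 0.06, 0.14 and 0.21 in water and 0.32, 0.03 and 0.2 in the extract group.

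Several of the remaining ligands are known from epithelia or are membrane-bound. Ccl27a, a CCR10 ligand of skin, had 8.46, 5.86 and 4.58 FPKM in water and 5.04, 5.37 and 4.73 in the extract group. The extract values lay within the water range, and water 1 was highest (log2 fold change -0.24, 95% interval -0.68 to 0.20, limma adjusted p = 0.767). Leaving out water 1 gave a log2 fold change of -0.03. Ccl27b, a copy of it, ranged from 0 to 1.37 and was at 0 in 3 libraries, so these 2 genes also share uncertain reads. Ccl25, the CCR9 ligand of thymus and gut, had 2.07, 0.86 and 1.45 in water and 1.21, 1.88 and 1.36 in the extract group, with a log2 fold change of 0.03 (95% interval -0.43 to 0.49, limma adjusted p = 0.977). Cxcl16, the membrane-bound ligand of CXCR6, had 3.33, 2.53 and 2.93 FPKM in water and 3.65, 3.71 and 2.84 in the extract group. Extract 3 lay within the water range (log2 fold change 0.16, 95% interval -0.15 to 0.47, limma adjusted p = 0.781), and 18.3% of its exon bases overlap Zmynd15 on the opposite strand. Cx3cl1, the other membrane-bound ligand, had 0.05, 0.21 and 0.26 in water and 0.35, 0.26 and 0.24 in the extract group. Ccl17, Ccl22 and Ccl28 did not exceed 0.24, 0.19 and 0.14 FPKM, and Cxcl15 and Cxcl17 did not exceed 0.06 and 0.15.

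The 17 receptor genes with values together had 4.37 to 5.72 FPKM in water and 5.21 to 5.96 in the extract group, less in every library than the ligand Ccl9 alone. Besides those given above, Cxcr6 of liver-resident lymphocytes ranged from 0.2 to 0.4, Xcr1 of cross-presenting dendritic cells from 0.21 to 0.29, and Cx3cr1 of monocytes from 0.14 to 0.19. Xcr1 and Cx3cr1 were low and even, with both groups in the same narrow range. Cxcr5 did not exceed 0.17, Ccr9 0.19, Ccr6 0.05, Ccr10 0.06 and Ccr4 0.05. The lymphoid markers were low as well. The 8 T cell markers with values summed to 3.22 to 3.83 FPKM in water and 3.11 to 4.2 in the extract group, the 9 NK and innate lymphoid markers to 2.05 to 3.19 and 2.96 to 4.49, the 5 B cell markers to 1.07 to 1.94 and 0.91 to 1.8, and the 7 dendritic cell markers to 2.31 to 2.96 and 2.76 to 3.34. No marker in these lists was at 0 in all libraries.

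**Figure D4:**
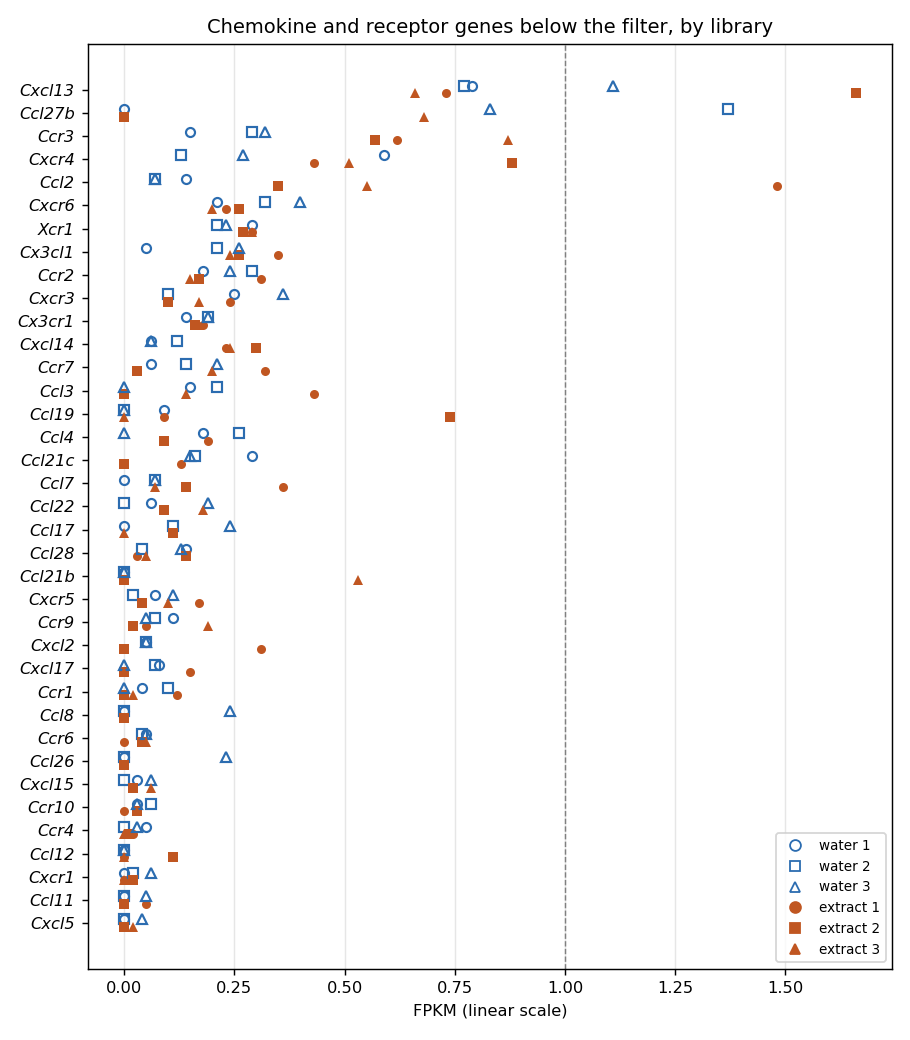
FPKM on a linear axis for the 37 genes above 0 that did not pass the filter, 1 point per library, with a dashed line at 1 FPKM. Most points lie below 0.5, and Ccr3, Ccl2 and Cxcl14 have all extract points to the right of all water points.

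The libraries of the extract group did not carry the same genes. Extract 1 was the single highest library for 12 of the 51 genes, among them the ligands Cxcl10, Cxcl9, Ccl2, Ccl7, Ccl3 and Cxcl2. Of these Ccl7, Ccl3 and Cxcl2 reached only 0.36, 0.43 and 0.31 FPKM there. Ccr1, Ccr2, Ccr7, Cx3cl1, Cxcl17 and Cxcr5 made up the rest. The related ligands Cxcl1 and Ccl4 were highest in water 1 and water 2. Extract 2 was highest for 9, among them Ccl6, Ccl24, Cxcl13, Cxcl16 and Cxcr4. Extract 3 was highest for 5, among them Cxcl12, Ccl5 and Ccr3. Water 3 was highest for 11, water 1 for 5 and water 2 for 3, and 6 genes had a tie. Il1b, an inducer of chemokine genes outside the set, was also highest in extract 1, at 1.7 FPKM, with 0.41 and 1.06 in extract 2 and 3 and 0.29 to 0.55 in water. These counts are a description and were not tested.

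Genes around the set were read from lists of pathway members and cell type markers. Of 25 inducers and signal proteins upstream of chemokine genes 18 were tested and 0 passed limma over all genes. 3 were higher and 0 lower at an unadjusted limma p below 0.05, and the median log2 fold change was 0.21. Irf7, an interferon-induced transcription factor, had 13.9 ± 1.22 FPKM in water and 64.1 ± 46.8 in the extract group (log2 fold change 1.87, limma adjusted p = 0.212). Tlr2, a sensor of bacterial lipoproteins, had 0.573 ± 0.12 and 1.14 ± 0.203. Tlr2 reached 1 FPKM in extract libraries alone, so it was tested because it was higher there. The cytokine genes Il6, Ifng and Tnf did not exceed 0.05, 0.09 and 0.2 FPKM in any library.

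Of 24 signal proteins downstream of the receptors 13 were tested, 12 with a log2 fold change above 0, and 0 passed (2 higher and 0 lower at unadjusted limma p below 0.05, median 0.10). Over all genes tested 57.5% were above 0, 6.50% were higher and 3.82% lower at that p, and the median was 0.03, values against which all counts of listed genes are to be read. Lyn, a kinase of myeloid cells, had 7.88 ± 0.916 against 10.7 ± 0.86 FPKM, and Rac2, a GTPase of leukocyte movement, 2.69 ± 0.25 against 3.6 ± 0.676. The 11 Kupffer cell markers were all above 0 in log2 fold change, with a median of 0.62, and 0 passed over all genes (9 at unadjusted limma p below 0.05). C1qa, a complement gene of macrophages, had 26.4 ± 2.23 against 50.2 ± 7.89 FPKM, with Cd68 and C1qb next by p. The part of the macrophage content in the level of Lyn was not tested.

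Atypical receptors bind chemokines without the usual signal. All 5 tested genes of a list of these and of chemokine-binding proteins were below 0 in log2 fold change, with a median of -0.18 and 0 passing (1 lower and 0 higher at unadjusted limma p below 0.05). Ackr2, a scavenger of inflammatory CC chemokines, had 1.37, 1.52 and 2.68 FPKM in water and 1.05, 0.97 and 1.17 in the extract group. Every extract value lay below every water value (log2 fold change -0.44, limma adjusted p = 0.452). Sdc1, a proteoglycan, and Dpp4, a protease that trims chemokines, had log2 fold changes of -0.29 and -0.18. Ackr1 was even, at 2.18 ± 0.268 and 2.16 ± 0.215, and Ackr3, which binds Cxcl12, was at 0.19 to 0.49. Of 5 chemokines that the symbol rule leaves out, Mif, a cytokine with chemokine-like action, was tested (295 ± 66.8 against 265 ± 9.58 FPKM, log2 fold change -0.13, limma adjusted p = 0.888), while the platelet chemokines Pf4 and Ppbp did not exceed 0.71 and 0.51 and Xcl1, the ligand of XCR1, did not exceed 0.37.

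The other cell types that make chemokines in liver were read in the same way, and 0 of their markers passed. The 10 sinusoidal endothelial markers had a median log2 fold change of -0.18, with 1 of them above 0, and summed to 140 to 166 FPKM in water and 122 to 145 in the extract group. The 10 stellate cell and fibroblast markers had a median of 0.10 (183 to 197 and 195 to 251 FPKM). The 8 cholangiocyte markers summed to 12.5 to 19.8 and 18.8 to 32.3 FPKM, most of it Spp1, at 14.1 ± 3.06 against 22.1 ± 5.3. The 10 hepatocyte markers had a median of -0.03. At unadjusted limma p below 0.05, 1 endothelial marker was lower and 0 higher. At that p 1 of the 2 cholangiocyte markers tested and 1 hepatocyte marker were higher and 0 lower. Among stellate cell and fibroblast markers there were 0 in either direction. The part of these cells in the levels of Cxcl12 and Cxcl14 was not tested.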

How the data were processed

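The table deposited by the authors gave 1 value per gene and library to 2 decimals, with no unit in its headers. The deposited values were taken as FPKM because they do not sum to a common total. Per the submitters' processing notes the tools were RSEM 1.2.12, HISAT2 2.0.4, DESeq2 1.4.5 and Bowtie2 2.2.5, with build GRCm38 and no roles given. The group means of the authors were not used. Because FPKM is relative, a change in the most abundant liver transcripts moves every other value, and depth per library is unknown.

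The 10282 genes that reached 1 FPKM in 3 or more libraries were tested with limma 3.58.1 (R 4.3.3) on log2(FPKM + 1), with a trended prior variance and Benjamini-Hochberg adjustment over all of them, and the fit was tested on simulated data. Fold changes on this scale understate those of low genes. Intervals are 95%. A gene's groups did not overlap where all values of one group exceeded all of the other. Promoters and coordinates are RefSeq's for GRCm38.p6, matched by gene ID for all 56 genes; exon overlaps are from GENCODE M21. Every gene that passed the filter is given by library, every other by its values or range; of each list up to 3 genes with the smallest p were read, and Il1b, Il6, Ifng, Tnf, Ackr1, Ackr3, Xcl1, Pf4 and Ppbp were added after their values were seen. A few genes that these rules name enter the counts but are not reported here. The members, lists and tests were chosen with earlier results of these data known. Motifs, ratios and role groups were chosen after values were seen. Alternatives covered the pseudocount, filters, scaling, prior variance, library weights, a replicate block and left-out libraries.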

Additional observations from a re-analysis of the deposited data

How the results depend on the processing

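0 chemokine or receptor genes passed limma's adjusted threshold in the fit reported and under each of the other settings tried. At unadjusted limma p below 0.05 the count of 2 became 1 with a pseudocount of 0.1 or 0.01, after quantile normalization or median-of-ratios scaling, 0 after median centring or when a mean of 5 FPKM was required, 5 with no filter, also with a pseudocount of 0.1, and 4 without both water 1 and extract 3 (the last 2 alternatives were added after seeing the data), and ran from 1 to 3 when each library was left out. Over all genes the 5 calls became 2 with either pseudocount, a required mean of 0.5 FPKM or quantile normalization, 0 with no filter, median centring, median-of-ratios scaling or the replicate block, 133 with library weights, 68 without both water 1 and extract 3, and 0 to 48 when each library was left out. Of the listed pathway and marker genes the count of 0 became 2 with library weights and 1 without both those libraries, and ran from 0 to 1 when each library was left out. The members' median log2 fold change of 0.10 became -0.03 when that mean of 5 was required and 0.24 without both libraries. The 14 detected genes became 33 at 0.1 FPKM.

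255 of 271 fold changes of single genes under other settings had the sign reported, and 9 of the 14 genes never turned. Ccl25 was at -0.01 after median centring and -0.02 after quantile normalization, and ran from -0.15 to 0.21 with each library left out. With library weights Ccl9, Cxcl1 and Cxcl12 were at 0.02, 0.20 and -0.06; with each library left out they ran from -0.12 to 0.08, from -0.26 to 0.30 and from -0.11 to 0.16. Without both water 1 and extract 3, Cxcl1, Cxcl12 and Ccl27a were at 0.06, -0.17 and 0.004. The cause was not tested. Same-numbered libraries did not deviate together (correlations of deviations -0.0171, -0.177 and 0.117), so the replicate block pairs only numbers; it left 0 chemokine genes called. Values below 1 FPKM are limited by unknown read numbers.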
